A study of Mus musculus with 2 samples.

Results

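Rhox5-positive cells of LLC tumours were chosen from droplet single-cell RNA profiles by their raw transcript counts. A barcode was kept with at least 200 detected genes, at least 5000 UMIs (unique molecular identifiers, each standing for 1 captured transcript) and at most 20% mitochondrial UMIs. A kept cell was Rhox5-positive with at least 3 Rhox5 UMIs, at least 1 Hmga2 UMI, no Cd3d, Cd3e or Cd79a UMI and fewer than 10 Lyz2 UMIs. The rule took 2225 of 13340 kept cells, out of 22634 barcodes in all. LLC, Lewis lung carcinoma, is a transplantable mouse lung carcinoma line. The tumours grew in wild-type mice (WT) and in Dusp2−/− mice (KO), and the series holds 1 library of each genotype, both labelled as lymphocytes that had entered the tumour. Of the Rhox5-positive cells, 1263 came from the WT library and 962 from the KO library. The implanted cells are the same line in both hosts by the labels, so that the deletion belongs to the host. The sources used here do not give how animals were pooled, how cells were sorted, the age and sex of the hosts or the deleted segment of Dusp2.

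Rhox5 encodes a homeobox protein of the X-linked reproductive cluster, whose normal expression lies mainly in the testis, ovary and placenta, and it is often found active in cultured and tumour cells. Hmga2 encodes a chromatin-bending protein of the embryo that is silent in most adult tissue and returns in many carcinomas. A tumour cell in a live host receives interferons from immune cells and answers with chemokines and antigen presentation genes. It can also release chemokines and Csf3, the granulocyte growth factor, which bring in neutrophils and monocytes.

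With 1 library per genotype there was no test between genotypes, and every difference below compares 2 libraries. The molecule labels differ too, total RNA in WT and polyA RNA in KO. For every gene this labelled difference coincides with genotype and cannot be told apart from it. Levels are UMIs of a gene summed over the Rhox5-positive cells of a library per 1000000 UMIs of those cells (CPM). Intervals are 95% intervals, exact Poisson for levels, exact conditional binomial for ratios and Clopper-Pearson for shares, and they cover counting error only. The libraries held 113873249 UMIs in WT and 101532711 in KO. Rhox5-positive cells were the deep cells of both, with a median of 28168 UMIs in WT and 19864 in KO, against 9723 and 8718 in the other kept cells. The other kept cells include cells that met the Rhox5 and Hmga2 conditions and failed a lineage condition. They held Rhox5 at 160 CPM in WT and 260 CPM in KO, with a UMI in 15.0% and 19.3% of them. Every level given below for the other kept cells includes the RNA of such cells. Between the libraries 31 barcodes recurred, carried by 5 WT and 3 KO Rhox5-positive cells, and no barcode was Rhox5-positive in both.

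Rhox5-positive cells made up 17.3% of kept WT cells (16.5 to 18.2%) and 15.9% of kept KO cells (15.0 to 16.8%). That order depended on the gate. B-lineage cells differed between the libraries, and the condition on Cd79a, a subunit of the B-cell receptor, removed 172 of 1591 WT cells and 391 of 1541 KO cells that met the Rhox5 and Hmga2 conditions. Of these, 139 and 283 held exactly 1 Cd79a UMI. Without that condition the shares were 19.6% and 21.2%, and with Lyz2 below 3 they were 11.1% and 15.0%. No direction of the share is therefore given.

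The threshold itself cut a thin tail. Members with 3 or 4 Rhox5 UMIs numbered 43 in WT and 37 in KO, and cells with 1 or 2 that met every other condition numbered 43 and 32. Hmga2 stood at 1263 and 1368 CPM just inside and at 1692 and 1291 CPM just outside. Ptprc, the leukocyte surface phosphatase CD45, stood at 10.2 and 25.8 CPM just inside and at 112 and 212 CPM just outside. Cells just outside the threshold thus carried more leukocyte RNA. Hmga2 was required on both sides, so its level there is a description of the rule.

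Outside the gate genes, the cells held much S100a6 and Pvt1 and a part of the epithelial marker list. S100a6, a calcium-binding protein abundant in motile and proliferating cells, stood at 21066 CPM in WT and 18226 CPM in KO, against 5743 and 5177 CPM in the other kept cells. Pvt1, the long non-coding RNA beside Myc on chromosome 15, stood at 1993 CPM and 1309 CPM, and 99.8% of the cells in each library held it. Krt8, a filament keratin of simple epithelia, had a level of 547 CPM (540 to 555) in the WT library and of 478 CPM (469 to 487) in the KO library. Krt18, its filament partner, stood at 76.4 CPM in WT and 58.0 CPM in KO, with a UMI in 41.8% and 37.0% of the cells. The 5 epithelial markers summed to 624 and 536 CPM, against 106 and 149 CPM in the other kept cells. In kept cells without Rhox5 and with at least 10 Lyz2 UMIs, called Lyz2-high cells, they summed to 8.94 and 7.94 CPM. Epcam and Cdh1, adhesion molecules of epithelium, were close to 0, at no more than 0.26 CPM in either library. Nkx2-1, the lung lineage factor, and Sftpc, a surfactant protein, had 0 UMIs in both, which allows up to 0.0837 CPM in WT and 0.13 CPM in KO (3 UMIs). Of the genes given for these cells, Rhox5 and Hmga2 were required by the rule, and Pvt1 and S100a6 were not.

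Markers of most leukocytes were low, and those of fibroblasts were mixed. Ptprc stood at 7.03 CPM in WT and 7.73 CPM in KO, with a UMI in 12.8% and 11.6% of the cells, and at 578 and 480 CPM in the other kept cells. The 10 macrophage markers, among them Lyz2, which the rule capped, summed to 178 CPM in WT and 83.5 CPM in KO, against 13615 and 4966 CPM in the other kept cells. The 7 T-cell markers summed to 5.83 and 6.77 CPM, with the gate genes Cd3d and Cd3e at 0. The 6 fibroblast markers summed to 1092 CPM in WT and 595 CPM in KO, against 720 and 679 CPM in the other kept cells. In cells without Rhox5 chosen by high Col1a1, a gene of this list, they summed to 34238 and 41103 CPM. Col3a1 made up most of the sum in Rhox5-positive cells (821 and 494 CPM). Dcn lay below the other kept cells (84.2 and 33.1 against 146 and 134 CPM). Lum lay above them in WT (99.5 against 33.6 CPM) and below them in KO (9.86 against 24.5 CPM). The 5 dendritic-cell markers summed to 284 and 290 CPM, against 267 and 396 CPM, and nearly all of it was Fscn1, an actin bundler (279 and 284 CPM). B-cell markers summed to 3.15 and 13.9 CPM, against 41 and 1266 CPM. Plasma-cell markers summed to 0.223 CPM in WT and 293 CPM in KO, and the same list stood at 7.77 and 24112 CPM in the other kept cells.

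**Figure D1:**
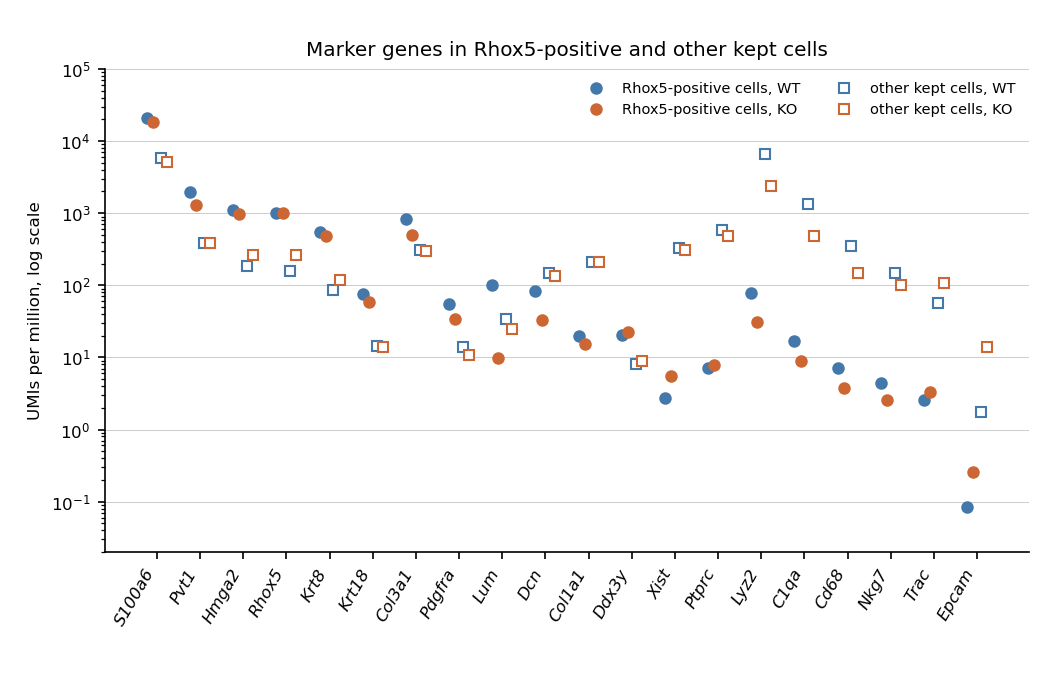
Levels of marker genes in CPM (log axis) in Rhox5-positive cells (filled circles) and in all other kept cells (open squares) of the WT and KO libraries. A level of 0 or below the axis range is drawn at its lower end, and counting intervals are mostly narrower than the symbols. S100a6, Pvt1, Hmga2, Rhox5, Krt8 and Krt18 lie above the other cells, and Xist, Ptprc, Lyz2, C1qa, Cd68, Nkg7 and Trac lie far below them; Rhox5 and Hmga2 chose the cells, and low Lyz2 was required.

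Other genes of the Rhox cluster accompanied Rhox5. Of 34 Rhox genes in the table, 23 had no UMI in these cells and 4 reached 30 CPM in both libraries. Rhox2h stood at 186 CPM in WT and 161 CPM in KO, Rhox2g at 160 and 138 CPM, and Rhox2d at 92.4 and 85.6 CPM. A UMI of Rhox2h was found in 93.5% of WT and 88.4% of KO Rhox5-positive cells. The Rhox2 genes are recent tandem copies of nearly the same sequence, so the split of reads among them is uncertain. All 4 lie on the X chromosome, with Rhox5 at chrX:37804842-37808876 on the plus strand (GRCm38).

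Y-chromosome RNA divided the cells. Ddx3y, an RNA helicase, had a level of 20.7 CPM (19.2 to 22.2) in the WT cells and of 22.4 CPM (20.6 to 24.5) in the KO cells. The summed level of Ddx3y, Eif2s3y (a translation initiation factor subunit), Uty and Kdm5d (histone demethylase family members) was 42.0 and 46.8 CPM, against 11.7 and 15.1 CPM in the other kept cells. Xist, the RNA that coats the inactive X of female cells, stood at 2.71 CPM (2.19 to 3.3) and 5.6 CPM (4.68 to 6.66) in Rhox5-positive cells and at 331 and 305 CPM in the others. Of kept cells free of the lineage genes with at least 3 Y UMIs, 241 of 252 in WT (95.6%) and 162 of 165 in KO (98.2%) were Rhox5-positive. With at least 1 Y UMI they were 564 of 641 in WT and 458 of 492 in KO. Rhox5-positive cells were the deeper cells, so a minimum of Y UMIs favours them. Among the cells with at least 3 Y UMIs, 4 in WT and 0 in KO had no Rhox5 UMI. Those 4 cells held Hmga2 at 4549 CPM, Pvt1 at 9982 CPM, S100a6 at 1602 CPM and no Xist UMI. Their median mitochondrial share was 11.8%, against 1.15% in WT Rhox5-positive cells.

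Y RNA was nevertheless not detected in many deep cells. Among the 900 WT and 477 KO Rhox5-positive cells with at least 20000 UMIs, 465 (51.7%) and 200 (41.9%) held no Y UMI. A Poisson count with the same mean would leave 26.1% and 23.1% of them at 0. Cells with 5 or more Y UMIs were 9.0% and 8.81%. The Y genes were detected in the same cells: another Y gene was found in 62.9% (57.7 to 67.9%) of WT cells with Ddx3y and in 13.2% (10.5 to 16.4%) of those without it. In KO these shares were 66.3% (59.5 to 72.7%) and 25.7% (20.5 to 31.3%). Median depth differed little between cells with and without Ddx3y, at 33490 and 32668 UMIs in WT and 34008 and 32262 in KO.

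**Figure D2:**
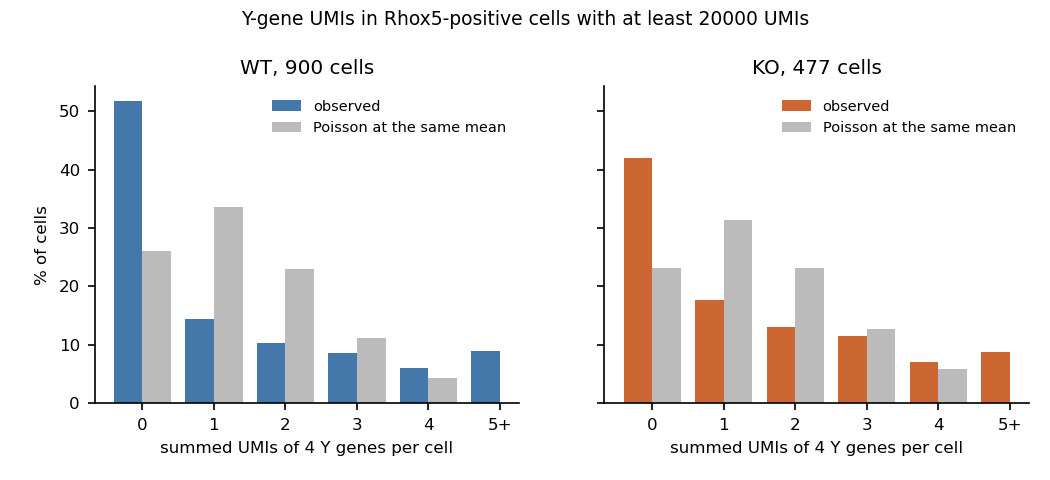
Share of Rhox5-positive cells (%) by summed UMIs of Ddx3y, Eif2s3y, Uty and Kdm5d, for cells with at least 20000 UMIs in each library, beside the share a Poisson count of the same mean gives (grey, not drawn for 5 or more). In both libraries the bar at 0 UMIs (51.7% and 41.9%) is above the Poisson bar (26.1% and 23.1%), and the bar at 1 UMI is below it.

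Deep cells with at least 2 Y UMIs (306 WT, 193 KO) and with none (465 and 200) were 2-fold apart in few genes. This split was chosen after the Y counts were seen, and it counts Ddx3y, which Lyz2-high cells with high Xist also held. Of 4177 genes, 5 (0.12%) were at least 2-fold higher and 6 (0.144%) at least 2-fold lower in Y-carrying cells in both libraries. Sncg, gamma-synuclein, stood at 13.6 CPM in Y-carrying and 73.7 CPM in Y-free cells of WT, and at 13.2 and 79.5 CPM in KO. Krt18, the partner of Krt8, stood at 44.4 and 97.9 CPM in WT and at 38.4 and 82.4 CPM in KO. Cxcl2, a neutrophil chemokine, followed with 926 and 1964 CPM in WT and 995 and 3691 CPM in KO. Fgf7, Plet1 and Ly6a completed the lower set. Higher in Y-carrying cells were Peg3, an imprinted zinc finger gene (146 and 65.3 CPM in WT, 70.1 and 32.4 CPM in KO), and Gpnmb, Pla2g7, Nrip1 and Plau, the urokinase gene. Rhox5 itself stood at 947 CPM in Y-carrying and 1095 CPM in Y-free WT cells, and at 882 and 1156 CPM in KO.

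Col1a1-high cells without Rhox5, 58 in WT and 36 in KO, gave a comparison with tumour stroma, which was chosen after the data were seen. Of 4473 genes, 840 (18.8%) were at least 2-fold higher and 945 (21.1%) at least 2-fold lower in Rhox5-positive cells in both libraries. When mitochondrial and ribosomal protein genes were left out of the total, the log2 ratios shifted by 0.27 in WT and 0.30 in KO and the counts were 1307 and 812, so the split between the directions depends on the scaling. Matrix genes were among those lowest relative to stroma, which was itself chosen by Col1a1. Col1a2, a chain of fibrillar collagen I, stood at 8.20 CPM in Rhox5-positive and 10977 CPM in stromal cells of WT, and at 6.25 and 11388 CPM in KO. Mgp, an inhibitor of calcification, stood at 0.112 and 877 CPM in WT and at 0.0868 and 449 CPM in KO. Plpp3, Cpxm1, Sfrp4, Igf1 and Serping1 were also among the genes lowest relative to stroma.

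On the other side, Krt8 stood at 547 CPM against 2.73 CPM in WT, where stroma held 2 UMIs, with a log2 ratio of 7.65 (5.79 to 10.69). S100a4, a metastasis-associated relative of S100a6, stood at 2116 and 154 CPM in WT and at 1898 and 73.3 CPM in KO, log2 ratios of 3.78 (3.51 to 4.06) and 4.70 (4.19 to 5.25). Phgdh, the entry enzyme of serine synthesis, stood at 222 and 12.3 CPM in WT and at 263 and 11.8 CPM in KO. Kcnq5, a potassium channel gene, Wfdc2, Galntl6, Gchfr and Rgs20 were other leading genes of the Rhox5-positive cells. Xist stood at 400 and 454 CPM in the stromal cells.

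Dusp2, the gene deleted in the KO host, encodes a nuclear phosphatase that inactivates MAP kinases. Its level in Rhox5-positive cells was 75.9 CPM (73.0 to 78.8) with the WT host and 75.3 CPM (71.8 to 78.9) with the KO host, a log2 ratio of -0.01 (-0.10 to 0.08). At 5000 drawn UMIs per cell, 27.4% and 27.5% of the cells held it. Lyz2-high cells without Rhox5, in which the 10 macrophage markers summed to 20451 and 19469 CPM, had Dusp2 at 75.6 CPM (73.0 to 78.4) with the WT host and 1.57 CPM (0.96 to 2.43) with the KO host. The library labelled KO thus carried Dusp2 RNA in the Rhox5-positive cells at the WT level and 20 UMIs of it in the Lyz2-high cells.

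The question of the genotype comparison was how tumour cells differ with the loss of Dusp2 in their host. Most genes lay close together: a candidate gene needed 50 UMIs in either library and 30 CPM on average, and of 4491 candidates 92.7% differed by less than 0.5 on the log2 scale and the median log2 ratio was -0.02. With that median, fewer candidates lay above 0 than below it. At least 2-fold higher in KO were 11 (0.245%) and at least 2-fold lower 11 (0.245%). Counting error is small at this depth, and the counting interval lay above 0 for 31.1% of candidates and below 0 for 39.1%. These intervals hold no spread between tumours, so genes were called by a 2-fold size and not by the interval. The genes named below were ranked by the interval bound nearest 0, and many of them differ by less than 2-fold.

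**Figure D3:**
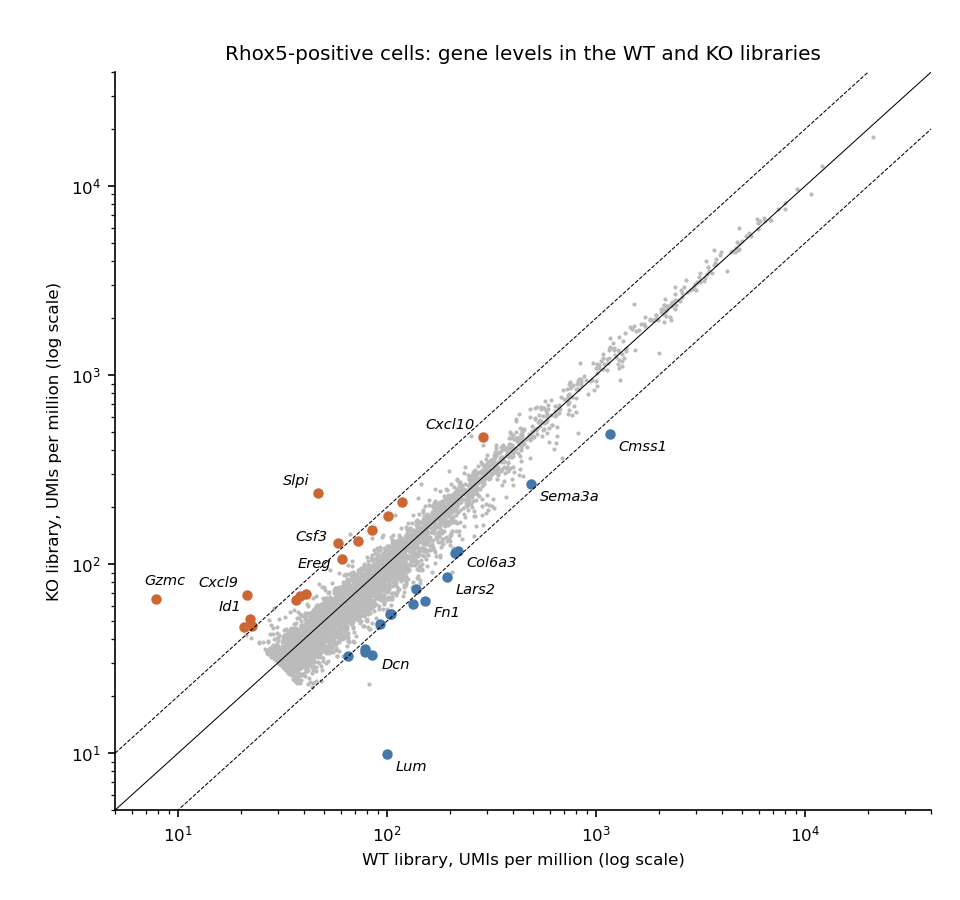
Level of each candidate gene in Rhox5-positive cells of the KO library against the WT library, in CPM on log axes; grey points are candidates, orange and blue points are the genes named as higher and lower in KO, the solid line marks equal levels and dashed lines 2-fold differences. Igkc and Ighg2b, below 1 CPM in WT, lie off the plot. Lum lies farthest below the lines, and Gzmc, Slpi and Cxcl9 lie farthest above.

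Matrix genes led the genes lower in KO. Lum encodes lumican, a proteoglycan that spaces collagen fibrils. Its level was 99.5 CPM (96.3 to 103) in WT cells and 9.86 CPM (8.62 to 11.2) in KO cells, a log2 ratio of -3.34 (-3.54 to -3.14), and 25.3% and 9.15% of the cells held a UMI. Mmp3, the matrix protease stromelysin, stood at 78.5 and 34.3 CPM (-1.19). Fn1, fibronectin, stood at 152 and 63.9 CPM (log2 ratio -1.25) and Dcn, the proteoglycan decorin, at 84.2 and 33.1 CPM (-1.35). Other kept cells held more of both, with Fn1 at 368 CPM in WT and 104 CPM in KO and Dcn at 146 and 134 CPM.

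Several collagens followed. Col5a2 and Col5a1, chains of collagen V, stood at 78.0 and 35.7 CPM (log2 ratio -1.13) and at 65.1 and 32.7 CPM (-0.99). Col6a3 and Col6a2, chains of the beaded filament collagen VI, had log2 ratios of -0.90 each, and Col4a1 of basement membranes stood at 104 and 54.2 CPM (-0.94). Dpt, dermatopontin, stood at 91.9 and 47.9 CPM (-0.94). Col3a1 stood at 821 and 494 CPM (-0.73). Of the 21 mesenchymal and matrix candidates 19 were lower in KO and 3 of these by 2-fold, with a median log2 ratio of -0.35 beside -0.02 over all candidates. The intermediate filament Vim (3577 and 3479 CPM) and the transcription factor Twist1 (131 and 130 CPM) had log2 ratios of -0.04 and -0.01.

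The Lum difference rested on a minority of cells. At least 5 Lum UMIs were found in 140 WT and 14 KO cells. In the 140 WT cells Lum stood at 848 CPM, Dcn at 528 CPM, Dpt at 320 CPM, Mmp3 at 249 CPM and Col3a1 at 1951 CPM, against 0, 21.6, 53.4, 41.0 and 606 CPM in the 944 WT cells without Lum. Krt8 stood at 327 CPM in the Lum-carrying and 600 CPM in the Lum-free cells. Rhox5 chose both sets and Lum divided them, so their Lum levels follow from the split. Stromal markers were also higher in them, with Col1a2 at 65.3 CPM against 1.22 CPM without Lum and 10977 CPM in stromal cells, while Mgp stood at 0.261 CPM and Xist at 4.18 CPM. The 14 KO cells had Col1a1 at 617 CPM and Xist at 36.3 CPM. The part of stromal RNA in the Lum difference was not tested.

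Outside the matrix, Sema3a, a secreted guidance protein, stood at 490 CPM in WT and 265 CPM in KO (log2 ratio -0.89), and Dlg2, a scaffold of cell junctions, at 134 and 61.3 CPM (-1.12). Peg3 stood at 104 and 54.6 CPM (-0.92) and Arhgap22, a Rac regulator, at 212 and 114 CPM (-0.89). Sema3a stood at 99.1 and 63.0 CPM in the other kept cells, Dlg2 at 27.1 and 11.9 CPM and Arhgap22 at 96.3 and 47.5 CPM. All these genes were thus lower in KO outside the gate too, Peg3 by little (15.2 and 13.9 CPM). Of 14 S100 and annexin genes 13 were lower in KO by small amounts. Their median of -0.20 lay inside the middle 50% of all candidates (-0.21 to 0.12), and they ranged from S100a16 (208 and 121 CPM, -0.78) to S100a11 (0.08).

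Of the 14 candidates in the list of chemokines, cytokines and growth factors, Csf3 had the highest ratio. Its level was 58.2 CPM (55.8 to 60.8) in WT cells and 130 CPM (125 to 134) in KO cells, a log2 ratio of 1.15 (1.07 to 1.24), and the ratio was 0.87 when every cell was weighted equally and 0.83 when the gate was applied to thinned counts. Cxcl2 stood at 1508 and 2372 CPM (0.65) and Cxcl1, which acts on the same neutrophil receptor, at 3365 and 3988 CPM (0.25). The epidermal growth factor receptor ligands differed in direction: Ereg stood at 60.5 and 106 CPM (0.81), Areg at 89.4 and 122 CPM (0.45) and Hbegf at 157 and 112 CPM (-0.50). In the other kept cells Ereg stood at 12.1 and 31.7 CPM and Csf3 at 24.1 and 32.3 CPM, both also higher in KO. The monocyte factors lay closer to equality, with Ccl2 at 3899 and 4317 CPM (0.15), Ccl7 at 731 and 619 CPM (-0.24) and Csf1 at 647 and 529 CPM (-0.29). In this list 8 candidates were above 0, with a median of 0.15.

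The neutrophil factors were unevenly spread over cells. Among 5000 drawn UMIs, Cxcl1, Cxcl2, Cxcl3, Cxcl5 and Csf3 summed to a median of 16 UMIs in WT and 18 in KO. The 95th percentile of WT cells was 74 UMIs, and 11.4% of KO cells (9.49 to 13.6%) lay above that value, against 4.91% in WT. The medians were thus close and the upper tail differed. Across cells this sum had a Spearman rank correlation of 0.35 in WT and 0.55 in KO with the summed ERK output genes, over 1263 and 962 cells that share a library and a fixed depth.

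Interferon-gamma targets and MHC class II genes were all above 0 in KO, 12 of 12 candidates, with a median log2 ratio of 0.62 and 1 of them 2-fold. Cxcl9, a T-cell chemokine, stood at 21.3 CPM (19.8 to 22.9) in the WT library and 68.2 CPM (64.9 to 71.7) in the KO library (1.68), and at 500 and 315 CPM in the other kept cells, which held more of it. Cxcl10, which binds the same receptor, stood at 288 and 467 CPM (0.70). The GTPases of cell-autonomous defence followed, with Igtp at 38.4 and 67.6 CPM (0.81), Gbp7 at 35.7 and 57.1 CPM (0.68) and Gbp2 at 64.9 and 98.9 CPM (0.61). The transcription factor Irf1 stood at 219 and 222 CPM (0.02). Among 16 candidates of MHC class I presentation the median was 0.14, with B2m at 1454 and 1803 CPM (0.31) and H2-K1 at 929 CPM in both. The 11 type I interferon candidates had a median of 0.16, and 7 were above 0.

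To show what the interferon targets share in sequence, the 250 bases before each start were read from RefSeq (GRCm38.p6) and searched on both strands for GAAA, any 2 bases and GAAA again, the core of the element bound by interferon regulatory factors. It occurred in 2.98% of all 32851 windows. Of the 12 candidates 9 had a window and 5 held the motif: Cxcl10, Gbp2, Igtp, Gbp7 and Socs1, the last with 2 overlapping matches. No match was found in these windows of Cxcl9, Irf1, H2-Aa and H2-Eb1. The 4 stretches below are from the genes described above, 5′ to 3′ on the strand of the gene, with the motif or its reverse complement in capitals. Cxcl10 is at chr5:92349063-92349132 (minus strand, motif beginning 213 bases before the start) and Igtp at chr11:58199492-58199555 (plus strand, 34 bases). Gbp2 is at chr3:142620574-142620643 (plus strand, 59 bases) and Gbp7 at chr3:142530253-142530322 (plus strand, 53 bases), both with the motif on the opposite strand.
Cxcl10: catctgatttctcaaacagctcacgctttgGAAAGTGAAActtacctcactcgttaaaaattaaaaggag
Igtp: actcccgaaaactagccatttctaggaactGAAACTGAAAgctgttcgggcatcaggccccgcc
Gbp2: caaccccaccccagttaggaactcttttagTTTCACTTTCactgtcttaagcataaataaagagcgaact
Gbp7: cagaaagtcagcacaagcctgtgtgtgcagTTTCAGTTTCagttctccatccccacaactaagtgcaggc

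Cxcl10 and Cd74 were the most unevenly held genes of the interferon-gamma and class II list that could be ranked. Ranked genes had a mean of at least 0.5 UMI per cell in both libraries at 5000 UMIs. Cxcl9 had means of 0.116 in WT and 0.266 in KO and was not ranked. By the variance beyond Poisson, Cxcl10 ranked first of 1243 genes in the library where its value was smaller (squared coefficient of variation 13.5), and Cd74, the class II invariant chain, second (7.18), against medians of 0.174 and 0.152 over those genes. Fos, Ccl7 and Cxcl2 were also among the 12 most variable genes, and in KO the value of Fos (14) was above that of Cxcl10. One KO cell held 1161 of 10762 Cxcl10 UMIs, and 1 KO cell held 265 of 1571 Cxcl9 UMIs. Without the highest cell of each library Cxcl10 had a ratio of 0.63 and Cxcl9 of 1.56. In cells with neither Mki67 nor Top2a among 5000 drawn UMIs, a split chosen after the data were seen, Cxcl10 had a log2 ratio of 0.35 in a first draw and -0.21 in a second, and the list median was 0.28 and 0.04. Cells with either gene in the first draw had ratios of 0.97 for Cxcl10, 1.92 for Cxcl9, 1.03 for Igtp, 0.92 for Gbp7 and 0.85 for Gbp2. The ratios thus differed between these classes and between draws, and the difference between the classes was not tested.

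Class II RNA was found beside low levels of RNA of antigen-presenting cells. Cd74 stood at 146 CPM in WT and 265 CPM in KO (log2 ratio 0.86), and 42.8% and 50.8% of the cells held it at 5000 UMIs, against 97.7% of WT Lyz2-high cells. Per 100 Cd74 UMIs there were 33.3 H2-Eb1 UMIs in WT Rhox5-positive cells and 31.4 in the other WT cells. In KO there were 28.5 and 24.2. H2-Aa had 42.5 and 36.5 UMIs in WT and 33.1 and 29.95 in KO. H2-Ab1 had 32.1 and 23.99 UMIs in WT and 22.8 and 17.25 in KO. Each of these ratios was higher in Rhox5-positive cells than in the other kept cells of the same library. Tyrobp, a myeloid signalling adaptor, stood at 24.7 and 18.4 CPM. The macrophage sum was lower in KO and the B-cell sum higher (3.15 and 13.9 CPM), and without the Cd79a condition Cd74 was among the genes 2-fold higher in KO. The part of RNA from other cells in the class II difference was not tested.

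**Figure D4:**
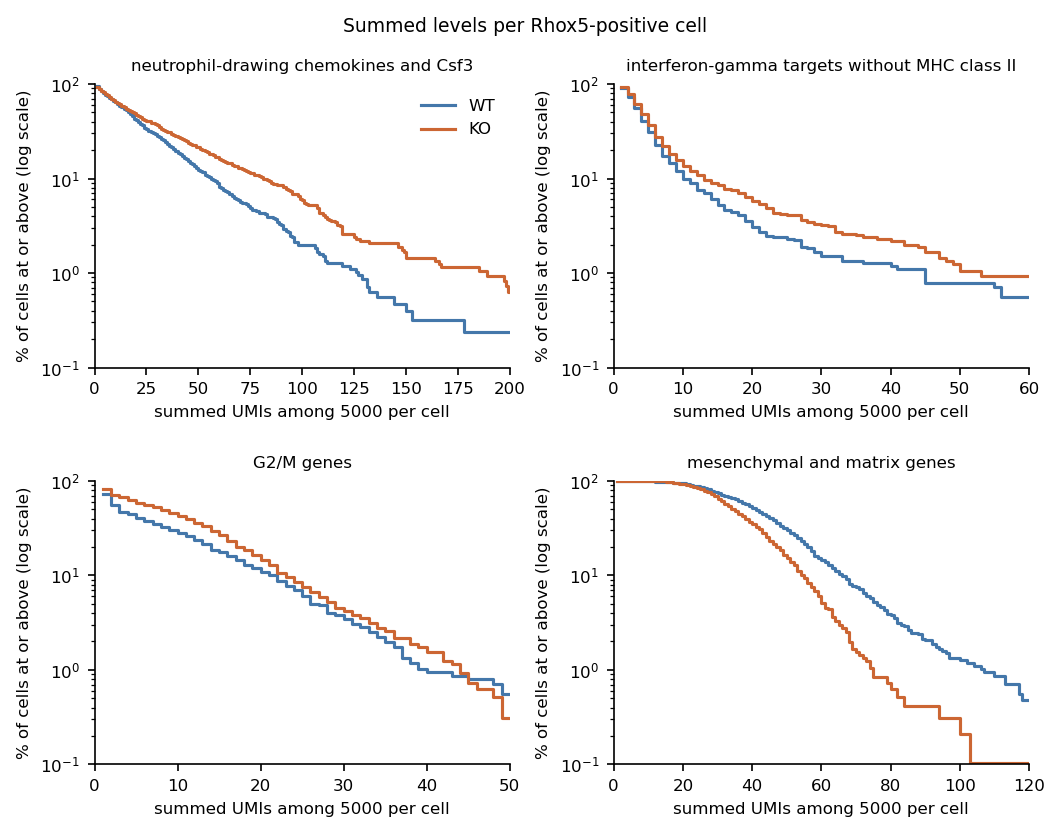
Share of Rhox5-positive cells (%, log axis) at or above a given summed UMI count among 5000 drawn UMIs per cell, for 4 gene lists in the WT and KO libraries. The KO curve is above the WT curve for the neutrophil chemokines with Csf3 (11.4% against 4.91% above 74 UMIs) and below it for mesenchymal and matrix genes (0.832% against 4.91% above 75 UMIs).

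Proliferation genes were higher in KO as a whole. All 16 G2/M candidates and all 17 G1/S candidates were above 0, with median log2 ratios of 0.34 and 0.27, and none was 2-fold. Top2a, which untangles replicated DNA, stood at 198 CPM in WT and 310 CPM in KO (0.65), and Cdk1, the mitotic kinase, at 84.7 and 138 CPM (0.70). Rrm2, a ribonucleotide reductase subunit, stood at 72.7 and 132 CPM (0.86), Pcna, the replication clamp, at 95.4 and 142 CPM (0.57), and Mki67 at 73.1 and 91.5 CPM (0.32). Rrm2 was also higher in KO in the other kept cells, at 21.4 and 81.1 CPM, a larger ratio than in the Rhox5-positive cells.

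By Mki67 or Top2a among 5000 drawn UMIs, 42.1% of WT cells (39.4 to 44.9%) and 55.9% of KO cells (52.7 to 59.1%) held a UMI of these mitotic genes, and are called cycling here. These cells were deeper than the rest, at a median of 32126 and 26633 UMIs in WT and 21112 and 17964 in KO. Matrix RNA was lower in them: Col3a1 stood at 474 CPM in cycling and 1125 CPM in other WT cells, and at 367 and 680 CPM in KO. Across cells the summed G2/M and mesenchymal genes had Spearman correlations of -0.54 and -0.41. The matrix difference was present in both classes, with Lum at -2.74 in cycling and -3.22 in other cells and Fn1 at -0.75 and -1.17. Csf3 had ratios of 1.23 and 1.12 in the same classes.

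Histone genes of the replication-dependent clusters were higher in KO in these cells and in the other kept cells. H3c3 stood at 22.7 CPM in WT and 47 CPM in KO (log2 ratio 1.05), H2ac4 at 20.6 and 46.6 CPM (1.18), H2ac24 at 117 and 213 CPM (0.86) and H2ac8 at 100 and 179 CPM (0.83). In the other kept cells H3c3 stood at 16.5 and 42.1 CPM, H2ac4 at 18.8 and 47.7 CPM, H2ac24 at 62.4 and 174 CPM and H2ac8 at 51.4 and 125 CPM. Most RNAs of these genes lack a poly(A) tail, the molecule labels differ (total RNA in WT, polyA RNA in KO), and the genes are near-identical copies, so their levels are uncertain. In cells without Mki67 and Top2a H3c3, H2ac4 and H4c4 were no longer 2-fold apart. Id1, an inhibitor of helix-loop-helix factors, stood at 22.1 and 51.2 CPM (1.22), with a ratio of 0.78 when each cell was weighted equally.

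Growth and metabolism lists had medians inside the range of most candidates. Of 24 Myc and growth candidates 21 were above 0, with a median of 0.16; Myc stood at 752 CPM in WT and 854 CPM in KO (0.18), while its neighbour Pvt1 had a ratio of -0.61. Slc16a3, the lactate exporter, stood at 84.2 and 151 CPM (0.84), Pgk1 at 509 and 670 CPM (0.40) and Ldha at 696 and 831 CPM (0.26). The 22 glycolysis and hypoxia candidates had a median of 0.15, with 13 above 0 and the regulator Pfkfb3 at the low end (38.9 and 24.3 CPM, -0.68). The 34 respiratory chain genes lay between -0.19 and 0.29 with a median of 0.02. The 16 genes of the unfolded protein and amino acid response had a median of 0.23, with the factor Atf4 at 236 and 325 CPM (0.46) and the chaperone Hspa5 at 978 and 836 CPM (-0.23). Rbp4, the retinol carrier, stood at 40.9 and 69.5 CPM (0.76) and the zinc transporter Slc39a1 at 36.8 and 64.3 CPM (0.81).

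The study's title names an axis of type I interferon, DUSP2 and NFAT. Of 5 candidates for NFAT and calcineurin 4 were below 0, with a median of -0.36: Nfat5, the osmotic stress factor, stood at 147 and 93.9 CPM (-0.65) and Ppp3ca, the calcineurin catalytic subunit, at 295 and 187 CPM (-0.66). The other MAP kinase phosphatases lay between -0.40 for Dusp10 (35.6 and 27 CPM) and 0.26 for Dusp9 (39.4 and 47.2 CPM). The ERK output genes were split, 8 of 16 above 0, with Spry2 at 34.1 and 55.9 CPM (0.71) and Fosb at 228 and 136 CPM (-0.74). Interferon receptor and signalling genes had a median of -0.03, with Jak2 at 35.5 and 24.6 CPM (-0.53).

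**Figure D5:**
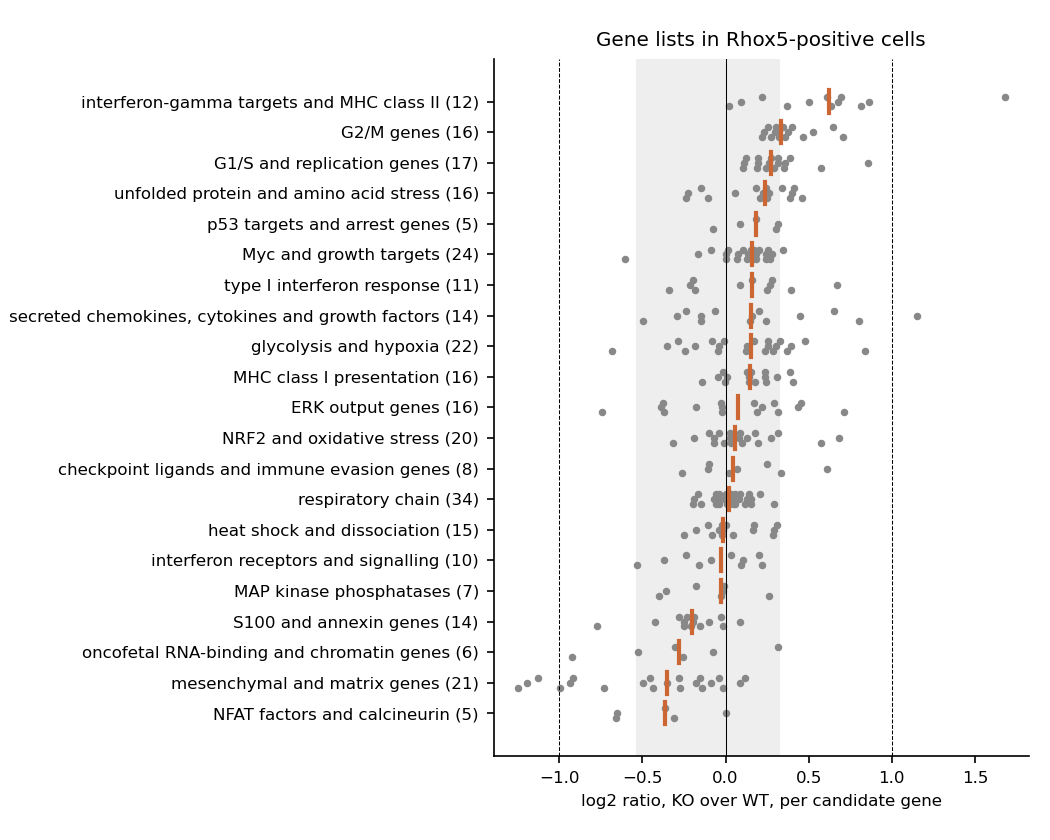
Log2 ratio of KO over WT for each candidate gene (grey points) in the gene lists with at least 5 candidates, with the median of each list as an orange bar and the number of candidates in brackets. The grey band covers 90% of all candidates, from -0.53 to 0.32, and dashed lines mark 2-fold; the interferon-gamma list has the highest median, 0.62, and the matrix and NFAT lists the lowest, -0.35 and -0.36.

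Some genes that differed were held more by other kept cells. Slpi, a secreted protease inhibitor, stood at 46.4 CPM in WT and 237 CPM in KO (log2 ratio 2.35, 2.27 to 2.43), and 12.5% and 41.8% of Rhox5-positive cells held it at 5000 UMIs. The other kept cells stood at 248 and 1098 CPM, and 27.2% and 32.6% of Lyz2-high cells held it. Gzmc, a granzyme of killer cells, stood at 7.84 and 65.2 CPM (3.06), but 1 cell held 244 of 281 UMIs in WT and 1 cell 1454 of 1501 in KO, and the remainder was 37 and 47 UMIs. Igkc, the antibody kappa constant region, stood at 0.167 CPM in WT and 270 CPM in KO with a UMI in 99% of the KO cells, beside 21891 CPM in the other kept KO cells. Cmss1, Cdk8 and Lars2 were lower in KO in these cells (log2 ratios -1.26, -1.17 and -1.18) and in the other kept cells. There Cmss1 stood at 3004 and 1073 CPM, Cdk8 at 851 and 193 CPM and Lars2 at 561 and 252 CPM.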

How the data were processed

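The authors deposited raw UMI counts per gene and barcode, matrices of 33696 genes from 3′ libraries (kit version 3.1, per the labels' protocols). The build was mm10, per the submitters' processing notes, which list Seurat (4.0.3, 4.0.4) and Cell Ranger 6.0.1. Version 8.0.1 of that tool stands in the matrices, per the file headers. No source used here gives the annotation release, and 31961 gene identifiers matched GENCODE M21. Counts were summed over cells per library and scaled to CPM with Python 3.11.15, numpy 2.4.6, scipy 1.17.1 and pandas 2.3.3. Cells were also thinned without replacement to 5000 UMIs each. Ratios were checked on simulated counts. Doublets were left in; Scrublet (scanpy 1.11.5) marked 5 WT and 35 KO Rhox5-positive cells, at its automatic threshold in WT and at the expected rate in KO, where the threshold marked 0%. Named genes were the 12 per direction with the interval bound farthest from 0 among genes with more RNA here than in other kept cells, and 4 per direction among the rest, leaving out gate, mitochondrial, ribosomal, antibody, T-cell receptor and predicted genes. Genes named outside this rule are list members or were chosen after their values were seen. The members and lists were chosen with earlier results of these data known. Alternatives covered the gate, depth, mitochondrial limit, doublets, scaling and candidate filter. Figures used matplotlib 3.10.9.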

Additional observations from a re-analysis of the deposited data

How the results depend on the processing

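The genes 2-fold lower in KO numbered 11, and 21 with the gate on thinned counts, 18 with Lyz2 below 3, 19 with CPM free of mitochondrial and ribosomal protein genes, 18 with equal weight per cell, 18 with no Ptprc, Tyrobp or Xist UMI, 890 with a filter of 10 UMIs and 4 with one of 200 UMIs and 100 CPM. Those higher numbered 448 and 3 under these 2 filters. The log2 ratio of the KO share to the WT share was -0.13, and 0.076 on thinned counts, 0.43 with Lyz2 below 3, 0.38 with no Ptprc, Tyrobp or Xist UMI and 0.11 without the Cd79a condition. Against stroma, 1307 genes were higher with the reduced total and 1877 and 337 under the 2 filters, and 3678 and 362 lower. Gzmc had a ratio of -2.62 in cells without Mki67 and Top2a in a first draw. Of 32 named genes 30 kept their sign under all 18 alternatives; Gzmc and Cxcl10 did not. Of 23 list medians 17 did. The settings on Ptprc, Tyrobp and Xist, on Cd79a, on cycling and on the highest cell were chosen after seeing the data. The comparison with Y-positive cells lacking Rhox5 gave no value, with 4 and 0 cells. No paired analysis was possible because each genotype had 1 library. Depth limits genes under the candidate filter, most of the 890 and 448. With 1 library per genotype, the spread between tumours was not measured.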
